A study of Gallus gallus with 24 samples.

Results

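The step from embryonic day 5 (E5) to embryonic day 6 (E6) of normal ventricular development was examined in the chick. It rested on 4 of the 24 arrays of the series: 2 arrays of a pool of both ventricles from normal E5 embryos and 2 arrays of a pool of both ventricles from normal E6 embryos, chosen by their labels. All 38439 probe sets other than the array's own controls were described, and 20335 of them passed a filter on low signal. A pool of the left and a pool of the right ventricle from normal E6 embryos, each also on 2 arrays, were set beside the E6 pool of both ventricles to see whether they moved the same way from E5. Each pool held tissue of 6 to 12 specimens, dissected from unoperated hearts and combined before RNA was isolated. Where a further pool is named, it is a normal pool of both ventricles at E4, a pool of both ventricles at E5 after conotruncal banding (a band tied in ovo around the outflow tract at day 4), normal pools of the left or right ventricle at E8 or E10, or pools of the left or right ventricle at E8 after partial ligation of the left atrial appendage at day 4. The labels name no sham operation, and they do not say whether the left and right pools came from the same hearts. Every condition had 1 pool, so the 2-fold comparison of E6 with E5 has no replicate check and no p-value. P-values come only from a fit over all 12 pools, in which the E6 level is taken from 3 pools. The error given with a level is the SD between the 2 technical arrays of its pool, which leaves out the variation between embryos and between dissections.

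At this age the chick ventricle is a spongy wall of trabeculae, sheets of muscle that project into the cavity, with a thin compact layer outside them. Between E5 and E6 the ventricles are being divided by the septum, the epicardium spreads over the surface, and cardiomyocytes still divide while they contract. The tissue also holds endocardium, blood cells and mesenchyme of the endocardial cushions, so that in pooled tissue fewer cells of a type and less RNA per cell cannot be told apart.

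The labelled tissue was checked against 10 genes that mark ventricular cardiomyocytes. All 10 were on the array and above the filter level. On the log2 signal scale, MYH15, the ventricular myosin heavy chain of the chick, stood at 15.91 at E5 and 15.89 at E6. MYL2, the regulatory light chain of ventricular myosin, stood at 15.35 and 15.28, TNNT2, cardiac troponin T, at 15.08 and 15.02, and IRX4, a transcription factor of ventricular muscle, at 14.26 and 14.28. Array medians lay between 4.05 and 4.11 in the E5 and E6 pools, and the root mean square SD between duplicate arrays was 0.125 at E5 and 0.107 at E6. A hybridisation control added to every sample, bioB, stood at 8.38 at E5, 7.76 at E6, 9.56 on the left and 7.85 on the right at E6. The difference between the 3′ and 5′ probe sets of actin, a measure of RNA and labelling quality, was 0.284 at E5, 0.325 at E6, 0.379 on the left and 0.427 on the right at E6. The part of these in the results was not tested.

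The question of this comparison was which genes differed between E5 and E6 in normal ventricles. Most probe sets lay close together: 93.2% of the 20335 kept ones were within 0.5 on the log2 scale, and the median difference, E6 minus E5, was 0.014. A probe set was counted when the pools were at least 2-fold apart, which is 1 on the log2 scale, and the arrays of one pool did not overlap those of the other. This was met by 176 of the 20335 kept probe sets (0.866%), of which 127 (0.625%) were higher and 49 (0.241%) lower at E6. The higher ones with 1 gene symbol came from 90 genes and the lower ones from 42, while 35 of the 176 had no single symbol. The rises were wider than the falls. At least 4-fold differences were seen at 40 higher and 3 lower probe sets, and at least 16-fold differences at 21 higher and 0 lower ones. The smallest counted rise was 1.001 and the largest not counted was 0.997, while the smallest counted fall was -1.001 and the largest not counted was -0.979. Another 18 probe sets that did not pass the filter were at least 2-fold apart, 16 of them higher at E6.

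**Figure D1:**
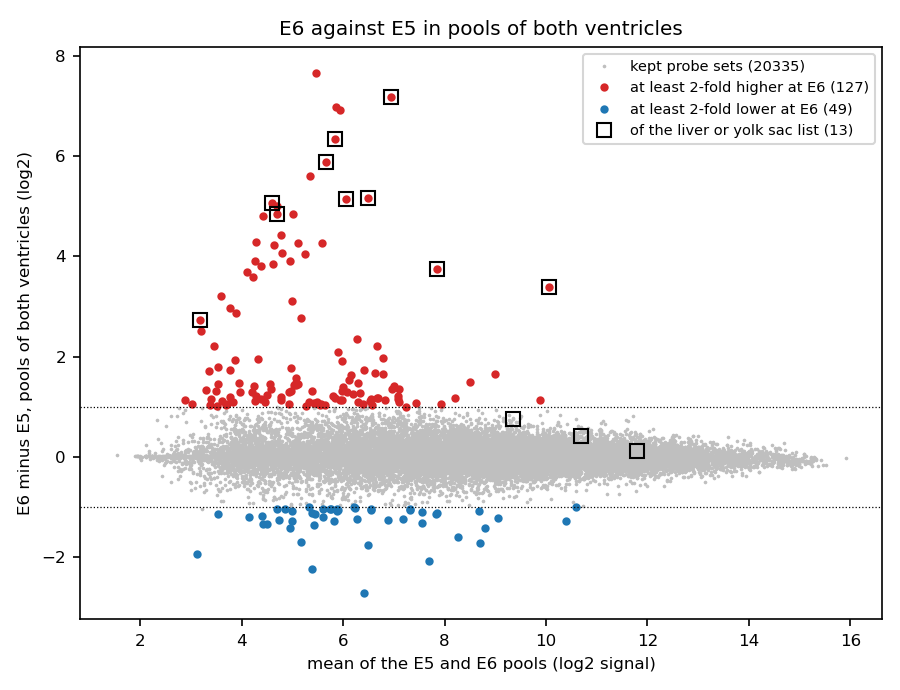
Each grey point is 1 of the 20335 kept probe sets, with the mean of the E5 and E6 pools of both ventricles on the x axis and E6 minus E5 on the y axis, both as log2 signal. The 127 red points and 49 blue points met the 2-fold rule (dotted lines), the open squares are the 13 kept probe sets of the liver or yolk sac list, and the widest differences all lie above 0, up to 7.66.

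The widest rises were at genes for secreted proteins of blood plasma and at an antimicrobial peptide. AvBD10, an avian beta-defensin, gave 1.64 and 1.64 on the 2 arrays at E5 and 9.34 and 9.26 at E6, a difference of 7.66, while the arrays of the left E6 pool gave 1.68 and 1.71 and those of the right 1.66 and 1.66. Its high arrays were those of the E6 pool of both ventricles alone among the normal pools, where every other pool mean was at most 1.70. TTR, the thyroid hormone carrier transthyretin, gave 3.35 and 3.38 at E5 and 10.52 and 10.56 at E6, a difference of 7.17. Its left E6 arrays gave 7.25 and 6.83 and its right E6 arrays 2.19 and 3.27, so that the left lay above E5 and the right below it.

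ALB, serum albumin, gave 3.92 and 3.88 at E5 and 8.92 and 9.22 at E6, against 3.53 and 3.88 on the left and 3.89 and 3.91 on the right at E6. APOB, the main protein of low-density lipoprotein, gave 2.71 and 2.71 at E5 and 8.82 and 8.38 at E6, and all 3 of its kept probe sets met the rule, with differences from 2.73 to 5.89. The 3 fibrinogen chains, which polymerise into clots, moved alike: FGG differed by 6.34, FGB by 5.15 and FGA by 4.84. In the left E6 pool these chains differed from E5 by 0.57, 0.56 and 0.08, and in the right by 0.02, -0.14 and 0.03, so that neither single-ventricle pool was 2-fold above E5 for any chain.

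The remaining genes among the 15 widest rises were FETUB (6.98; a fetuin, a circulating protease inhibitor), SPP2 (6.93; a secreted phosphoprotein), KNG1 (5.01; kininogen, the precursor of bradykinin), ITIH2 (4.85; a heavy chain of a plasma protease inhibitor), SERPIND1 (4.81; heparin cofactor II, which inhibits thrombin), RBP4A (4.29; a retinol-binding protein), GC (4.27; the vitamin D carrier) and PRPS2 (4.27; an enzyme of nucleotide synthesis). Of these, none was 2-fold from E5 in the left or right E6 pool. Over all 15 genes the median level was 2.59 at E5 and 8.60 in the E6 pool of both ventricles, against 2.78 for the left and 2.66 for the right. At E5 all 15 lay below the filter level of 4.09, so the size of each difference depends on how low signals were processed: with values below 4.09 raised to it, the 15 differences ran from 2.33 (RBP4A) to 6.44 (TTR). All 3 kept probe sets of PRPS2 met the rule, with differences of 3.91, 4.27 and 4.42.

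Further genes with wide rises, were named after their values were seen. FAH and HPD, enzymes of tyrosine breakdown, differed by 4.07 and 4.05, and neither was more than 0.03 from E5 in the left or right E6 pool. AvBD9, another beta-defensin, was at 2.32 at E5, 6.22 in the E6 pool of both ventricles, 2.36 on the left and 2.34 on the right. PLG, plasminogen, differed by 3.11 and 3.84 at its 2 kept probe sets, and F5, coagulation factor V, by 1.16 and 1.01; at the first of these F5 was at 6.49 at E5, 7.65 in the E6 pool of both, 6.90 on the left and 6.38 on the right. TF, a gene of the liver or yolk sac list that encodes the iron carrier transferrin, had probe sets that disagreed. Those that met the rule differed by 3.40 and 3.74, from 8.36 to 11.76 and from 5.98 to 9.72, while the other kept one, at 11.73 and 11.84, differed by 0.11.

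**Figure D2:**
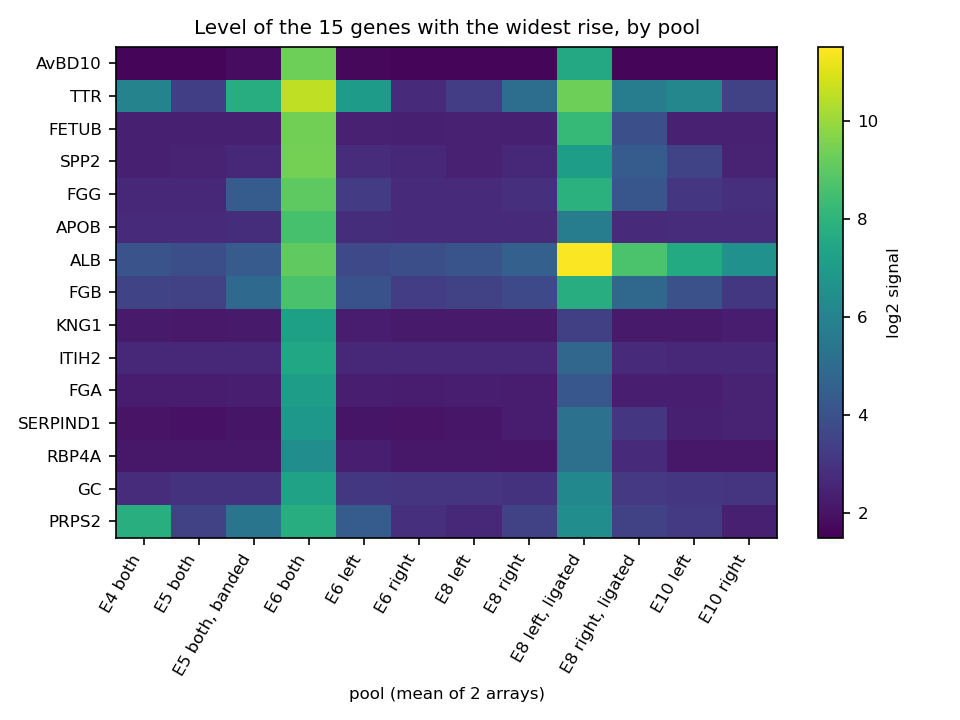
Colour gives the log2 signal (mean of 2 arrays) of the 15 genes with the widest E6 minus E5 difference, 1 gene per row, in each of the 12 pools; levels compare within a row. All 15 lie above the filter level of 4.09 in the E6 pool of both ventricles (6.42 to 10.54) and 14 of 15 do in the ligated left E8 pool (3.40 for KNG1 to 11.45 for ALB), whereas the left and right E6 pools have medians of 2.78 and 2.66.

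In the other normal pools most of these 15 genes were low. In the normal E8 pools their median was 2.60 (left) and 2.66 (right), and at E10 it was 2.75 and 2.50. At least 2-fold above E5 at E8 were 0 of the 15 on the left and 1 on the right (TTR, 5.11). At E10 there were 3 on the left (ALB at 7.61, TTR at 6.12 and SPP2 at 3.54) and 1 on the right (ALB, 6.55). At E4, TTR (5.98) and PRPS2 (7.80) were at least 2-fold above E5. In the banded E5 pool, 4 of the 15 were, with TTR at 7.71, PRPS2 at 5.39, FGB at 4.90 and FGG at 4.40. After left atrial ligation the median was 6.39 in the left E8 pool, where 15 of 15 were at least 2-fold above E5, and 3.16 in the right, where 7 of 15 were. Against its own control, the normal left E8 pool, the ligated left pool was higher at 39 of the 127 probe sets (30.7%), where 2.54% of all kept probe sets were. The ligated right pool was higher than the normal right E8 pool at 15 of the 127 (11.8%), against 1.98% of all. Of the 49 probe sets lower at E6, 16 (32.7%) were higher in the ligated left pool and 24 (49.0%) in the ligated right pool. A higher level after ligation was thus not particular to the rises. Among the rises it was unevenly spread. Of the 127, 56 were at least 2-fold above both single-ventricle E6 pools, and 31 of these were higher in the ligated left pool. Of the other 71, 8 were. The comparisons of ligated with normal E8 pools share no pool with E6 minus E5.

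Several of these genes belong to a list of liver and yolk sac markers. Of the 12 genes on that list, 6 met the rule at their representative probe set, the one with the highest mean over all arrays, where 0.866% of all kept probe sets did: TTR, FGG, APOB, ALB, FGB and FGA. All 6 are among the 15 above, so this count adds no further genes. APOA1, the main protein of high-density lipoprotein, stood at 10.49 at E5 and 10.90 at E6. APOH, a plasma glycoprotein, stood at 2.17 and 2.97 and did not pass the filter. AFP, alpha-fetoprotein, VTG2, a yolk protein precursor, and RBP4 lay between 1.90 and 3.57 in all 12 pools, below the filter level. The summed linear signal of all 12 genes of the list was 4921 at E5, 9076 at E6, 5528 on the left and 5365 on the right at E6, and 11566 in the ligated left E8 pool. A gene that is low everywhere else passes the filter only through a pool in which it is high, so the 6 are counted out of 12, over which the median difference was 2.82. Whether liver or yolk sac tissue had a part in any of the differences between E5 and E6 was not tested.

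The E6 pool of both ventricles was also set against the left and right E6 pools directly. Among the 127 higher probe sets, 56 were at least 2-fold above the left and at least 2-fold above the right E6 pool, and among all kept probe sets 233 (1.15%) were. The 56 had a median level of 2.78 at E5 and 6.87 in the E6 pool of both ventricles, against 2.78 for the left and 2.70 for the right. Of the 49 lower probe sets, 10 were at least 2-fold below both single-ventricle pools, against 150 (0.738%) of all. These counts use the same E6 pool as the rule that chose the 176, so they describe that pool and are no independent evidence. Over all kept probe sets, the E6 pool of both ventricles was at least 2-fold from the averaged single-ventricle pools at 669 (3.29%), 347 higher and 322 lower, and its level lay between left and right at 33.5%.

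The widest falls from E5 to E6 were smaller and more mixed in kind. S100A12, a calcium-binding protein of granulocytes in mammals, gave 6.56 and 6.47 on the 2 arrays at E5 and 4.26 and 4.27 at E6, a difference of -2.25. Its left E6 arrays gave 3.61 and 3.83 and its right 3.50 and 3.55, so that all 6 arrays of E6 lay below both arrays of E5. RIDA, an enzyme that removes reactive imines formed in amino acid breakdown, gave 8.66 and 8.79 at E5 and 6.74 and 6.55 at E6, with 6.48 and 6.81 on the left and 7.46 and 7.39 on the right at E6, again without overlap. GBP, an interferon-inducible guanylate-binding protein, gave 9.50 and 9.64 at E5 and 7.88 and 7.81 at E6, and 7.91 to 8.13 on the 4 single-ventricle arrays. Its second kept probe set differed by -0.73. At the first, GBP was at 7.77 at E4 and 8.11 in the banded E5 pool.

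SERPINB10B, a protease inhibitor of the serpin family, was at 4.08 at E5 and 2.14 at E6, both below the filter level, with 2.10 on the left and 1.48 on the right at E6, so that with values below 4.09 raised to it there was no difference left. SLC2A5, a fructose transporter, was at 5.16 at E5, 3.82 at E6, 3.98 on the left and 3.75 on the right, and its second kept probe set differed by -0.49. At the first, SLC2A5 was at 4.48 at E4 and 3.99 in the banded E5 pool. These 5 genes were the ones among the 15 widest falls that were 2-fold below E5 in all 3 E6 pools. CIDEC, C20orf173 and LOC418543 were lower by the 2-fold rule in the left but not in the right E6 pool. CIDEC, a protein of lipid droplets, was at 7.37 at E5, 5.62 at E6, 5.80 on the left and 6.92 on the right, and C20orf173 was at 5.37, 4.12, 4.10 and 5.24. LOC418543, an uncharacterised gene, was at 11.04, 9.76, 6.89 and 11.65 in the same order. UMPS, an enzyme of pyrimidine synthesis, was lower by the rule in the right alone, at 9.51 at E5, 8.08 at E6, 8.87 on the left and 7.51 on the right, and its second kept probe set differed by -0.13.

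LOC107052719 and STEAP4 were lower by the rule on the left but higher by it on the right. LOC107052719, also uncharacterised, had the widest fall, from 7.86 and 7.71 on the arrays of E5 to 4.50 and 5.62 on those of E6, but it gave 6.06 and 6.43 on the left and 9.38 and 9.17 on the right at E6. STEAP4, a metalloreductase, was at 6.46 at E5, 5.17 at E6, 2.34 on the left and 7.65 on the right. The rest of the 15 widest falls were 2-fold below E5 in neither single-ventricle pool. TINAGL1, a matrix protein of the basement membrane, was at 6.02, 4.31, 5.73 and 6.33 at E5, in the E6 pool of both, on the left and on the right, and CLASP1, which stabilises microtubules, at 6.11, 4.74, 6.78 and 7.01. The other kept probe sets of CLASP1 differed by -0.06, 0.14 and 0.27, the first of these at 12.30 at E5 and 12.24 at E6. For STEAP4, LOC418543 and LOC107052719 the E6 pool of both ventricles lay between or below a left and a right pool that were themselves 8-fold or more apart.

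**Figure D3:**
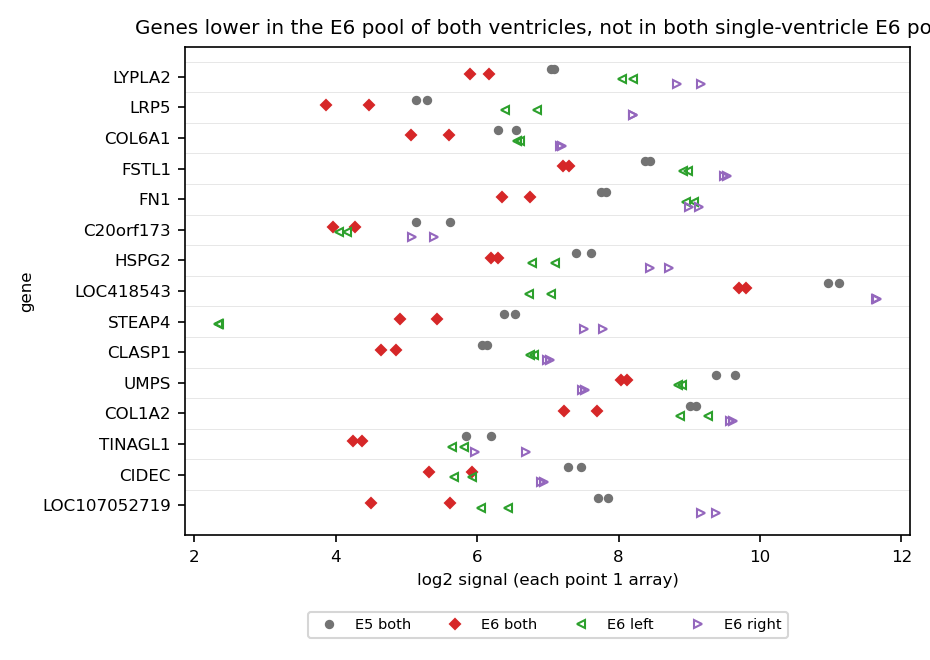
Each point is the log2 signal of 1 array for genes that met the 2-fold rule downward in the E6 pool of both ventricles (red) but not in both single-ventricle E6 pools (open triangles, left and right), beside E5 (grey); each pool has 2 arrays. FN1, LRP5 and LYPLA2 lie above E5 in both single-ventricle pools, and STEAP4 lies below E5 in the left (2.34) and above it in the right (7.65).

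In the pool of both ventricles, genes of the extracellular matrix were lower at E6 at some probe sets and little different at others. Of 41 genes on the list, all on the array, 39 passed the filter; at their representative probe sets 0 met the rule in either direction, 31 were below E5 and 8 above, and the median difference was -0.14, beside 0.014 for all kept probe sets. The single-ventricle pools differed for this list: on the left 8 of the 39 were 2-fold below E5 (2.99% of all kept probe sets were) and the median was -0.36, while on the right 1 was below (1.96% of all), 1 was above and the median was -0.03. The 8 were COL1A1, COL1A2, COL2A1 and COL9A1, all collagen chains, ELN, HAPLN1 and HAS2, a link protein and the synthase of hyaluronan, and TIMP2, an inhibitor of matrix proteases; they were named after their values were seen. COL2A1 was below E5 by the rule on both sides, at -1.15 on the left and -1.19 on the right, and HAS2 was at -2.06 and 0.21. The widest at those probe sets were ELN, elastin, at -0.84, from 10.52 to 9.67, and COL1A1, a chain of type I collagen, at -0.58, from 12.28 to 11.71. Of the 94 kept probe sets of these genes, 3 met the rule downward, where 0.241% of all kept probe sets did. COL1A2, the second chain of type I collagen, differed by -1.59 at one of them, from 9.06 to 7.46, where the left and right E6 pools were at 9.07 and 9.60; at its representative probe set it differed by -0.38, from 13.86 to 13.48, and its 6 kept probe sets ran from -1.59 to 0.18.

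FN1, fibronectin, a matrix protein that cells adhere to, differed by -1.24 at one probe set, from 7.79 to 6.55, but stood there at 9.01 on the left and 9.06 on the right at E6, each 2-fold above E5. Its representative probe set stood at 14.42 and 14.37, and in the pool of both all 7 kept probe sets lay at or below -0.05. In the single-ventricle pools they were mixed. One probe set was at 8.01 at E5, 9.06 on the left and 9.35 on the right. Another was at 13.38, 13.38 and 12.95. COL6A1, a chain of type VI collagen, differed by -1.09 at one probe set and by -0.27 and -0.23 at the others. At the first, COL6A1 was at 6.42 at E5 and 5.34 in the E6 pool of both. The left and right E6 pools were above E5 there, at 6.59 and 7.19. HSPG2, the basement membrane proteoglycan perlecan, belongs to no list here but is among the 15 widest falls, at -1.26, with 7.50 at E5, 6.25 at E6, 6.94 on the left and 8.57 on the right at E6.

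LRP5, FSTL1 and LYPLA2, further falls, named after their values were seen, stood in the opposite direction in the single-ventricle pools. LRP5, a co-receptor for Wnt ligands, was at 5.21 at E5 and 4.17 in the E6 pool of both ventricles, but at 6.63 on the left and 8.21 on the right at E6. FSTL1, a secreted glycoprotein, was at 8.41 and 7.25, against 8.94 and 9.51. LYPLA2, a thioesterase, was at 7.07 and 6.03, against 8.12 and 8.99. For all 3 genes the arrays of the E6 pool of both ventricles lay below those of E5 and of the single-ventricle E6 pools. The left and right differences from E5 were 1.41 and 2.99 for LRP5, 0.54 and 1.10 for FSTL1, and 1.05 and 1.92 for LYPLA2. With values below 4.09 raised to it, the fall of LRP5 in the pool of both was -0.93 and did not meet the rule. At the second kept probe set of each gene, the pool of both differed from E5 by 0.07 for LRP5, -0.50 for FSTL1 and -0.28 for LYPLA2.

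Whether the left and right E6 pools moved the same way as the E6 pool of both ventricles was then counted over the 176 probe sets. All 3 differences share the E5 pool, so an unusual level at E5 moves them together. Of the 127 higher probe sets, 21 were also at least 2-fold above E5 in both the left and the right pool, 13 in the left alone, 13 in the right alone and 80 in neither; of all kept probe sets, 1.98% were this far above E5 in the left, 3.13% in the right and 0.866% in both. Of the 49 lower ones, 9 were at least 2-fold below E5 in both, 11 in the left alone, 4 in the right alone and 25 in neither, against 2.99% in the left, 1.96% in the right and 1.11% in both for all. Thus 30 of the 176 (17.0%) were 2-fold from E5 on the same side in all 3 E6 pools. They are 7.46% of the 402 kept probe sets (1.98%) that were 2-fold to one side of E5 in both left and right pools. By sign alone, 89 of the 127 lay above E5 in both single-ventricle pools, and 24 of the 49 lay below it in both. Opposite 2-fold differences in a single-ventricle pool were seen at 2 of the higher and 8 of the lower probe sets. The median difference from E5 over the 127 was 1.44 in the pool of both, which the rule fixed, 0.34 on the left and 0.13 on the right; over the 49 it was -1.19, -0.65 and -0.34. At 53 of the 127, both single-ventricle pools lay within 0.5 of E5. The averaged single-ventricle pools were themselves 2-fold from E5 at 746 kept probe sets (3.67%).

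Contrasts with other early pools avoid the shared E5 pool. From the banded E5 pool to the averaged single-ventricle E6 pools, 13 of the 127 probe sets were 2-fold higher (1.87% of all kept ones were) and 15 were 2-fold lower (2.01% of all). Of the 49, 10 were lower and 5 higher. From E4 the numbers were 19 higher (3.78% of all) and 13 lower (2.33% of all) for the 127, and 5 lower and 10 higher for the 49.

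**Figure D4:**
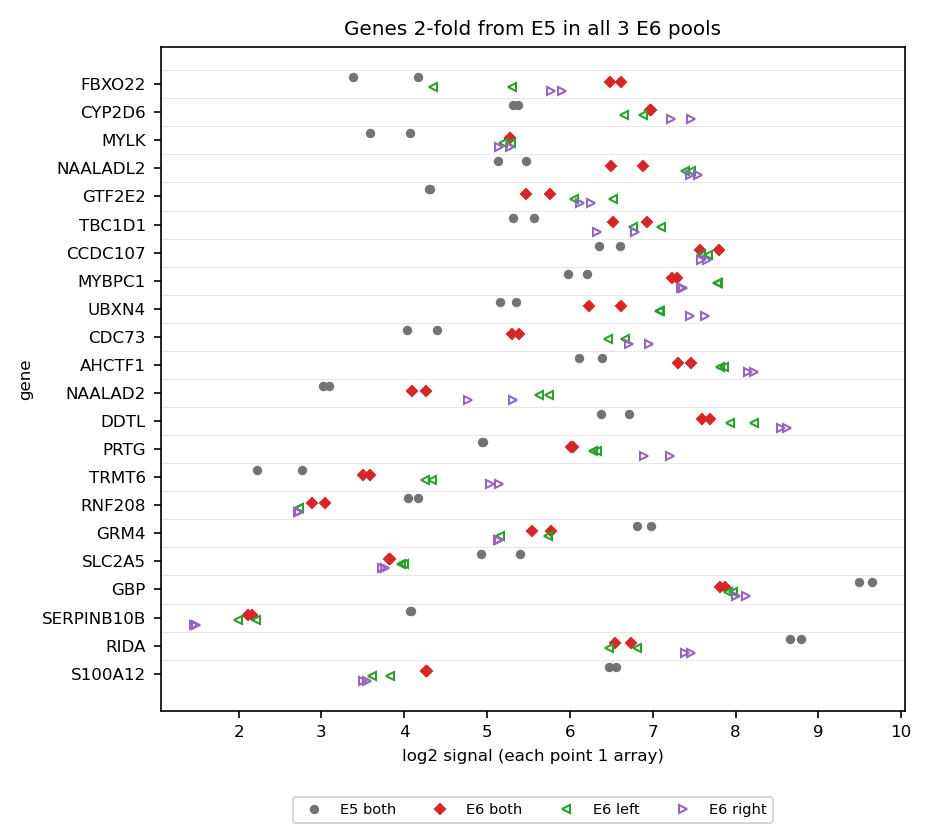
Each point is the log2 signal of 1 array for the 22 genes that met the 2-fold rule from E5 (grey) to the E6 pool of both ventricles (red) and were 2-fold from E5 on the same side in the left and right E6 pools (open triangles). For the 15 higher genes all E6 arrays lie to the right of the E5 arrays, and for the 7 lower genes all lie to the left. The rule that chose these genes required this separation.

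The 21 probe sets higher in all 3 E6 pools came from 15 named genes and 6 probe sets without a single symbol; these genes were named after their values were seen. CYP2D6, a cytochrome P450, gave 5.37 and 5.32 on the 2 arrays at E5, 6.97 and 6.98 in the E6 pool of both ventricles, 6.66 and 6.89 on the left and 7.22 and 7.46 on the right. CCDC107, a coiled-coil protein, gave 6.35 and 6.61 at E5 and between 7.57 and 7.80 on the 6 arrays of E6. It stood at 7.49 in the banded E5 pool. TBC1D1, a regulator of Rab GTPases that acts in glucose uptake by mammalian muscle, gave 5.31 and 5.56 at E5 and between 6.33 and 7.10 on the 6 arrays of E6. For each of these genes the E6 arrays lay above both E5 arrays, which the rule that chose them required.

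MYLK, the kinase that activates smooth muscle myosin, gave 4.07 and 3.58 at E5 and between 5.14 and 5.29 on the 6 arrays of E6. It went on to 5.97 and 6.85 in the left and right E8 pools and 6.37 and 7.61 at E10, and it was at 2.90 at E4. MYBPC1, the slow-muscle form of myosin-binding protein C, gave 5.98 and 6.21 at E5, 7.23 and 7.30 in the E6 pool of both, 7.77 and 7.79 on the left and 7.35 and 7.37 on the right. It did not keep this level: it was at 7.95 at E4, 4.29 and 3.46 in the left and right E8 pools and 2.75 and 2.72 at E10. PRTG, protogenin, a cell surface receptor of early embryos, was likewise at 8.06 at E4, 4.94 at E5, 6.03 in the E6 pool of both and 1.91 and 3.48 at E10.

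At the probe set that met the rule, most of the other higher genes of this group had wider differences in the single-ventricle pools than in the pool of both. FBXO22 did not. NAALADL2, a peptidase-like protein, differed by 1.38 in the pool of both, 2.13 on the left and 2.20 on the right. CDC73, a subunit of the Paf1 complex that travels with RNA polymerase II, differed by 1.14, 2.36 and 2.63, GTF2E2, a subunit of the general transcription factor TFIIE, by 1.31, 1.98 and 1.88, and AHCTF1, a nucleoporin needed to assemble nuclear pores, by 1.13, 1.59 and 1.93. UBXN4, a factor of protein degradation at the endoplasmic reticulum, differed by 1.16, 1.83 and 2.28, DDTL, a relative of D-dopachrome tautomerase, by 1.10, 1.54 and 2.04, TRMT6, a subunit of a tRNA methyltransferase, by 1.05, 1.80 and 2.60, and NAALAD2, a peptidase, by 1.12, 2.63 and 1.99. TRMT6, at 2.49 at E5 and 3.54 in the pool of both, and NAALAD2, at 3.06 and 4.18, did not meet the rule with values below 4.09 raised to it, where they differed by 0 and 0.085. FBXO22, a substrate receptor of a ubiquitin ligase, had the widest difference in the pool of both, 2.78, against 1.05 and 2.07, with 3.38 and 4.17 on the arrays at E5.

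Each of these 15 genes had other kept probe sets that did not meet the rule. FBXO22 had 6 kept probe sets, and the other 5 ran from -0.85 to 0.10. The second probe set of CYP2D6 stood at 10.15 at E5 and 10.29 at E6, and the others of MYLK at 10.96 and 11.18 and at 12.79 and 13.13. For MYBPC1 the others differed by 0.68 and 0.10, and for NAALAD2 by 0.97 and 0.30. Brighter probe sets of several genes differed little in the pool of both. Those of CDC73, at 10.19 and 10.85 at E5, differed by 0.16 and 0.31. That of UBXN4 at 11.82 differed by 0.07, DDTL at 12.44 by -0.06 and TRMT6 at 8.69 by 0.03. TBC1D1 at 10.97 differed by -0.05 and AHCTF1 at 9.24 by 0.13. For each gene of this group, 1 probe set met the rule. At that probe set the E6 pool of both ventricles minus the banded E5 pool was 1.45 for NAALADL2, 1.24 for TBC1D1 and 1.18 for CDC73. For PRTG, AHCTF1, GTF2E2, CYP2D6, TRMT6, UBXN4 and DDTL it ran from 0.95 down to 0.39. It was 0.19 for CCDC107, 0.13 for MYLK, 0.06 for MYBPC1, -0.03 for FBXO22 and -0.22 for NAALAD2.

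The 9 probe sets lower in all 3 E6 pools came from S100A12, RIDA, SERPINB10B, GBP and SLC2A5, described above, from GRM4 and RNF208, and from 2 probe sets without a single symbol. GRM4, a metabotropic glutamate receptor, gave 6.98 and 6.80 at E5, 5.77 and 5.54 at E6, 5.73 and 5.16 on the left and 5.13 and 5.15 on the right at E6. RNF208, a RING finger protein, was at 4.10 at E5, 2.96 at E6, 2.73 on the left and 2.72 on the right, and its difference of -1.14 became -0.033 with values below 4.09 raised to it. Its second kept probe set, which did not meet the rule, was at 9.38 at E5 and 8.98 in the E6 pool of both. On the left and right at E6 that probe set was at 7.01 and 7.25. GRM4 went on to 2.93 and 4.94 in the left and right E8 pools and to 2.28 and 2.67 at E10. S100A12 did not stay low: it was at 3.67 at E4, 6.51 at E5, 6.54 in the left E8 pool, 3.94 in the right and 6.29 and 5.46 at E10. The E6 pool of both ventricles minus the banded E5 pool was -2.18 for S100A12, -1.72 for RIDA, -1.44 for GRM4 and -1.26 for SERPINB10B. It was -0.74 for RNF208, -0.27 for GBP and -0.16 for SLC2A5.

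A fit over all 12 pools takes the E6 level from its 3 pools. It asked whether the E5 to E6 difference exceeded the spread of the pools around a common left-right difference. Limma called 0 of 20335 probe sets (0%) at a Benjamini-Hochberg adjusted p under 0.05, with 1369 at an unadjusted p under 0.05. The smallest adjusted p was that of CYP2D6, at 0.267 in limma, for a difference of 1.69 ± 0.13 (SE), higher in 3 of 3 E6 pools. CCDC107 followed with 1.16 ± 0.12 (limma, adjusted p = 0.613). TBC1D1, at 1.30 ± 0.18 (limma, adjusted p = 0.682), came further down. The probe sets ranked between them were both higher and lower at E6, from -1.08 to 1.39. For ALB, TTR and AvBD10 the fit gave wide errors, at 1.65 ± 2.18, 3.40 ± 2.66 and 2.58 ± 3.35. For these genes the 3 E6 pools differed, and the left-right difference at E8 was wider after ligation. AvBD10 was at 7.52 (left) and 1.66 (right) in the ligated E8 pools, against 1.67 and 1.65 in the normal ones. Among the falls, S100A12 was at -2.68 ± 0.72 and GBP at -1.62 ± 0.36 (limma, adjusted p = 0.726 for both). The 4 residual degrees of freedom of the fit come from pools of E6, E8 and E10, and the E5 pool is assumed to vary like them. No pool had a replicate of its own side, stage and treatment. The residual spread therefore includes left-right differences that change with age or ligation.

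In the pools of both ventricles no gene of the cardiac muscle, rhythm or growth lists met the rule at its representative probe set. As 0.866% of all kept probe sets met it, 0 is the nearest whole count for lists of this size. For sarcomere genes, 26 of 32 passed the filter, 0 met the rule in either direction at their representative probe sets, and the median difference was -0.02, beside 0.014 for all kept probe sets. DES, desmin, the intermediate filament of muscle, was lowest at -0.74, from 11.57 to 10.83, but at -0.04 on the left and -0.02 on the right at E6. LDB3, a protein of the Z-disc, was highest at 0.51, with 0.72 on the left and 0.75 on the right. MYH7, a slow myosin heavy chain, was at -0.37, -0.45 and -0.80 in the 3 E6 pools.

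Of the trabecular and conduction genes, 12 of 20 passed the filter and 0 met the rule, with a median of -0.01. NPPA, the atrial natriuretic peptide, which marks trabeculae, was at 14.91 at E5 and 14.79 at E6, and BMP10, a growth factor of trabecular muscle, at 13.20 and 12.87. ERBB4, the receptor for neuregulin, was at -0.49 in the pool of both but at 0.55 on the left and 2.01 on the right at E6. Among 28 of 33 kept cell cycle genes, 0 met the rule and the median was -0.03; TOP2A, a topoisomerase of dividing cells, was lowest at -0.33 and CCNE2, a cyclin of the start of DNA replication, highest at 0.29. Among calcium handling and channel genes, 14 of 20 passed the filter and 0 met the rule, with CACNA1C, the pore of the L-type calcium channel, highest at 0.49 and with 1.20 on the left and 0.63 on the right at E6. RYR2, the calcium release channel, was at 0.43, 0.39 and -0.24.

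Nor did a gene of the metabolic and signalling lists. For glycolysis and hypoxia, 25 of 33 passed the filter and 0 met the rule, with a median of -0.09. PFKM, the muscle form of phosphofructokinase, was lowest at -0.66 and at -0.53 on the left and -1.14 on the right. PDK4, a kinase that slows pyruvate oxidation, was highest at 0.61. For mitochondria and fatty acid oxidation, 22 of 32 passed the filter and 0 met the rule, with PPARA, a nuclear receptor for fatty acids, highest at 0.58 and at 0.51 and 0.39 in the single-ventricle pools. For signalling, 44 of 57 passed the filter and 0 met the rule, with a median of -0.14, and 32 were below E5. In the single-ventricle pools 7 of the 44 were 2-fold below E5 on the left (2.99% of all kept probe sets were), with a median of -0.45, and 4 on the right (1.96% of all), with a median of -0.17. BMP4, a growth factor of the BMP family, was at 0.12 in the pool of both, -1.96 on the left and -1.51 on the right, and PDGFRB, a receptor of mesenchymal cells, at -0.18, -1.03 and -1.29. HEY1, a target of Notch, was at -0.34 in the pool of both but at -1.85 on the left and -1.92 on the right at E6. ASNS, asparagine synthetase, of the stress list, was at 0.87, 0.82 and 1.43. HAND1, a cardiac transcription factor, was at 0.06 in the pool of both and at -1.26 and -1.68 in the single-ventricle pools.

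**Figure D5:**
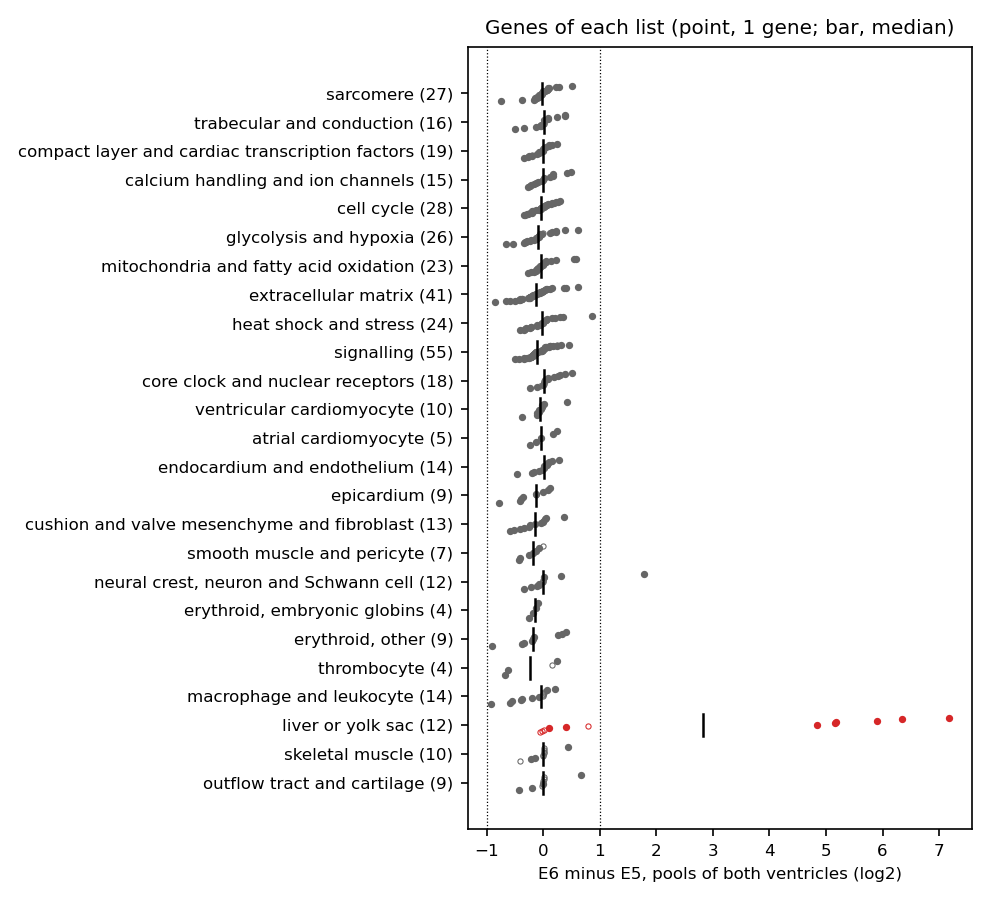
Each point is a gene of a list at its representative probe set, by its E6 minus E5 difference (log2) in the pools of both ventricles; filled points passed the filter and open ones did not, the bar is the median of both, the dotted lines mark 2-fold, and the number of genes on the array stands in brackets. Of the liver or yolk sac list (red), 6 of 12 genes lie past the upper dotted line, and the list's median is 2.82.

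In the pool of both ventricles, markers of other cells in the wall were within 2-fold of E5 at their representative probe sets, with 1 exception. STMN2, a neuronal microtubule protein, gave 4.14 and 4.03 at E5 and 5.29 and 6.43 at E6, but 2.81 and 2.44 on the left and 4.07 and 4.07 on the right at E6. Its 2 arrays at E6 were further apart than most, and the other 7 kept genes of the neural crest, neuron and Schwann cell list did not meet the rule. The 4 embryonic globins on the array were between -0.25 (HBE) and -0.08 (HBBR), from levels of 15.02 to 15.55 at E5. Of the kept thrombocyte genes 2 of 3 were below E5, and of the macrophage and leukocyte genes 7 of 9, none of them by the rule. Below E5, also without meeting it, were 6 of 8 epicardium, 9 of 12 cushion and fibroblast, 6 of 6 smooth muscle and 5 of 13 endocardium genes. The left E6 pool was 2-fold below E5 at 3 of the 12 cushion genes and 2 of the 3 thrombocyte genes, against 2.99% of all kept probe sets. On the right these counts were 1 and 0, against 1.96%, and 1 cushion gene was 2-fold above (3.13% of all). Among the cushion genes lower on the left were COL1A1 and HAPLN1, which are also on the matrix list and were counted there. ITGB3, an integrin of thrombocytes, was at -0.62 in the pool of both, -1.14 on the left and -0.59 on the right at E6, and CTSS, a protease of macrophages, at -0.58, -1.14 and -0.16. The summed linear signal of the 14 macrophage and leukocyte genes was 7578 at E5, 7109 at E6, 6022 on the left and 6867 on the right at E6.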

How the data were processed

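Biotin-labelled cRNA was hybridised to one-colour oligonucleotide arrays. The authors deposited 1 table of log2 values for 24 arrays, 2 technical arrays for each of 12 pools. The tools named by the submitters' processing notes are GCRMA and MAS5; which one made the table, and its version, is not given in the sources used here. That it is a log2 scale follows from the range of the values. GCRMA presses low signals towards a floor, which sets how wide a difference from a dim signal can be.

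No normalization was added to the deposited values. The array's 96 control probe sets were not used. A probe set was kept where its highest pool mean was at least 4.09, the 50th percentile of the values left, which left 20335 of 38439. Probe sets were named from GEO's platform annotation, which can be old: 27168 had 1 gene symbol, 177 several and 11094 none, and 26853 were matched to RefSeq (GRCg7b) by gene ID with 0 symbols changed. The 2 arrays of a pool were averaged. Pools were compared by the 2-fold rule, with no test, and E6 with E5 also by limma 3.58.1 (R 4.3.3; two-sided tests from lmFit and eBayes) on 12 pool means with stage and treatment as a factor and side as a covariate; the fit was tested on simulated data. Tables were handled in Python 3.11.15 with pandas 2.3.3 and numpy 2.4.6. Such p-values measure the spread of these pools around a common left-right difference, not a spread between replicate pools. The number of arrays limits the precision.

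Named were the 15 genes with the widest difference each way among those that met the rule, each at its probe set with the highest mean among those that met it, and list members that met the rule. Up to 4 other members of a list are given as values, except for the liver or yolk sac list, where all other members are given. Other genes are said to be named after their values were seen. The comparison, its 11 pathway and 14 marker lists and the rules were chosen with earlier results of these data known. Alternatives covered the filter, the scaling, a floor on low values, the fold threshold, single arrays, other subsets of pools and limma's settings. Array numbers did not pair the samples: over 66 pairs of pools, correlations of same-numbered arrays ran from -0.0827 to 0.0772. No sequences or genome coordinates are given.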

Additional observations from a re-analysis of the deposited data

Results flagged for a closer look

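At 8 of the 65 probe sets examined for named genes, the left and right E6 arrays lay on opposite sides of the E5 arrays; the difference was not tested, and each side is 1 pool. The left minus right difference was -5.31 for STEAP4, -4.77 for LOC418543, -3.03 for LOC107052719, -1.64 for HSPG2 and -1.48 for RET, a receptor tyrosine kinase of neural crest derivatives. It was 4.32 for TTR, 3.89 for CXCL14, a chemokine, and 0.70 for FGB. Left and right levels were both below the filter level for FGB, at 4.03 and 3.33, and for RET, at 2.41 and 3.88. STEAP4 on the left (2.34) and TTR on the right (2.73) were below it on that side.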

How the results depend on the processing

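The 176 probe sets became 194 with no filter, 168 after quantile normalization, 172 after median centring, 143 with low values raised to the filter level and 177 with no condition on overlap. They were 42 with the 70th percentile filter (fewer tested), 925 at 1.5-fold and 61 at 3-fold, and 235 to 249 on single arrays. With E6 taken from the averaged single-ventricle pools, an alternative chosen after seeing the data, the count was 746, 376 of them higher. Against the banded E5 pool it was 211 (102 higher and 109 lower), so that the balance of higher and lower depended on which E5 pool was used, and without probe sets 2-fold above both single-ventricle E6 pools it was 120 (71 higher). The fold threshold was met on the same side of E5 in all 3 E6 pools at 6 probe sets with the 70th percentile filter. At 1.5-fold the count was 217 and at 3-fold 2, against 30, and on single arrays it was 44 to 56. The 669 probe sets that set the E6 pool of both ventricles apart from those averaged pools became 294, 1823 and 218, and 720 to 737 on single arrays. The limma fit called 7 with no filter, 1 higher and 6 lower, and 0 under the other filter, both scalings, both other limma settings, each subset of pools and each single array. A replicate block on the array number, with the pool as a random block in a fit of 24 technical arrays, called 5; the cause of these calls was not tested. Of 325 values of named genes under 5 settings, 0 reversed and 39 moved by more than the SD of their arrays, 23 of them with low values raised. Part of this was fixed in advance. The rule required arrays not to overlap, so neither dropping an array nor raising low values could reverse a sign. A shift from dropping 1 of 2 arrays stays within the combined SD of the pools. The 65 values for each dropped array therefore could not count as moved. Low signal limits the size of any difference from a probe set below 4.09.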

Other observations

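Genes that were high at E4 and in the banded E5 pool but low in the normal E5 pool formed another kind of rise; they were named after their values were seen. CLDN1, a tight junction protein, was at 10.73 at E4, 5.80 in the normal E5 pool, 8.42 in the banded E5 pool and 7.78 in the E6 pool of both ventricles, with 7.51 on the left and 5.76 on the right at E6. CXCL14 was at 9.33, 5.80, 9.43 and 7.46 in the same order, with 8.75 on the left and 4.85 on the right. CDH1, the cadherin of epithelia, was at 6.92, 5.02, 6.66 and 6.09, with 5.77 on the left and 5.09 on the right. A low level was not particular to the normal E5 pool. Normal tissue of E8 was no higher for CLDN1, at 5.74 (left) and 5.71 (right), and for CDH1, at 4.87 and 4.89. CXCL14 was higher there than at E5, at 7.74 and 6.26. E6 minus the banded E5 pool was -0.64 for CLDN1, -1.97 for CXCL14 and -0.58 for CDH1.

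ASB15, a substrate receptor of a ubiquitin ligase that is abundant in striated muscle of mammals, stood higher at each later age in the normal pools. Its kept probe sets, 2 in number, differed by 2.09 and 1.93 between E5 and E6. At the first it stood at 3.56 at E4, 4.85 at E5, 5.24 in the banded E5 pool, 6.94 in the E6 pool of both ventricles, 5.81 on the left and 6.48 on the right at E6, 8.49 and 8.79 at E8 and 9.49 and 9.24 at E10. There the left E6 pool, 0.96 above E5, did not reach 2-fold. At the second ASB15 was at 2.91 at E5, 4.84 in the E6 pool of both, 3.25 on the left and 4.11 on the right. TRIM36, a ubiquitin ligase, met the rule at 2 of its 3 kept probe sets, at 1.18 and 1.06, with the left E6 pool 1.31 and 1.13 from E5 and the right 0.43 and -0.72.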
